A study of Arabidopsis thaliana with 14 samples.

Results

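Intron 6 is the last intron of *FLOWERING LOCUS C* (*FLC*, AT5G10140), the MADS-box gene that represses flowering in *Arabidopsis thaliana*. Its nucleosomes were described from targeted MNase-seq, using every deposited *FLC* fragment whose midpoint lay between 4631 and 5539 bp downstream of the transcription start site (TSS). These were 88905 of the 1039765 fragments listed over the 14 libraries (8.55%), or 22068 of 241708 distinct fragments when libraries were joined, and 254 of the 22068 were present in all 14 libraries. The libraries came from whole seedlings of *vrn1-4* FRI after 1 week at 5 °C (1W cold, n = 4), *vrn1-4* FRI in the warm (n = 3), WT FRI after 1W cold (n = 4) and WT FRI in the warm (n = 3). All seedlings were Columbia (Col-0) plants with an active *FRIGIDA* allele introgressed from San Feliu-2, grown for 10 days at 22 °C, and the mutant groups also carried *vrn1-4*, the single mutant allele tested. Each library was made from many whole seedlings, so its values average over all their cell types.

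*FRIGIDA* activates *FLC*, and prolonged cold silences the gene through Polycomb. VRN1 is a DNA-binding protein of the plant B3 family that binds without sequence specificity and is needed for stable silencing. MNase cuts the DNA between nucleosomes and trims it at their edges, so the midpoint of a fragment marks the place of a nucleosome and its length how much DNA was protected. The antisense transcripts, known as *COOLAIR*, start beyond the 3′ end of *FLC*, and the short forms end in intron 6.

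*FLC* is read from the minus strand of chromosome 5. In the RefSeq annotation of TAIR10.1, intron 6 runs from 3173826 to 3174817 (992 bp), and the window used here runs from 3173909 to 3174817 (909 bp), which leaves out the 83 bp next to exon 7. The window holds an alternative exon of 1 of the 4 annotated *FLC* transcripts, from 3174036 to 3174107 (5341 to 5412 bp from the TSS). Of the 6 annotated *COOLAIR* transcripts, 2 end within the window, at 3173996 and 3173997 (5451 bp from the TSS). The window is 69.6% AT, against 67.1% over the whole target region of 9568 bp, 67.8% in intron 1 and 61.0% in exon 7. Each base of the window was covered by 0 to 2 capture baits of 80 nt. A stretch of 40 bp from 3174470 to 3174509 (4939 to 4978 bp from the TSS) had no bait.

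The following DNA, from RefSeq TAIR10.1 and written 5′ to 3′ on the sense (minus) strand, carries the results. The most frequent fragment lies at chr5:3173958-3174104 and holds the *COOLAIR* end. The bin with the largest difference between the genotypes in the cold lies at chr5:3174382-3174481. The bin that differed both between genotypes and between temperatures lies at chr5:3174482-3174581, and the footprint of the tallest nucleosome peak at chr5:3174492-3174638. The stretch almost free of fragments lies at chr5:3174688-3174796. Capitals mark runs of at least 5 A or 5 T in the first 4 sequences, and a TA repeat and a palindrome of 20 bp in the last.
Most frequent fragment: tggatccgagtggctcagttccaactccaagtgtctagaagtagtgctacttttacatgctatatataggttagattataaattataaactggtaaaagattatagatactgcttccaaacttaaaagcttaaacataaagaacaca
Bin with the largest difference: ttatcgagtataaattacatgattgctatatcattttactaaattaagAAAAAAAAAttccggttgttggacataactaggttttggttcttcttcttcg
Bin called in both genotype and cold comparisons: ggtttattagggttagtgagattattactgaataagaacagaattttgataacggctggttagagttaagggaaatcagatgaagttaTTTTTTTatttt
Tallest peak footprint: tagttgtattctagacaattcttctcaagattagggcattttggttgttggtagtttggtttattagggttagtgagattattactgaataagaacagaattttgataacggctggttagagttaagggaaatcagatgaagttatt
Depleted stretch: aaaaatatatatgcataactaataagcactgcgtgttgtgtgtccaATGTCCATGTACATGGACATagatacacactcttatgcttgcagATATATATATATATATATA

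The most frequent fragment and the footprint of the tallest peak had no run of AAAAA or TTTTT on either strand, while 67.3% of all *FLC* windows of 147 bp had one. Both bins had 1 such run, as 52.7% of all windows of 100 bp had. These are descriptions of the letters in the windows.

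Across the 14 libraries, 1117 to 10930 distinct fragments fell in intron 6. Only relative frequencies were given, without counts. The smallest frequency of a library was 8.73e-07 to 2.09e-05. A fragment counted once has a frequency of 1 over the library's *FLC* fragments, so these values tell the depth where such fragments are present. On that reading depth differed widely between libraries. It was lowest in WT FRI warm replicate 2, which had the largest of these values and also listed the fewest fragments. One library was by median more like the other genotype at its temperature than like its own group. Over 10-bp bins of intron 6, the midpoint profile of WT FRI 1W cold replicate 1 had a Pearson's r of 0.927 to 0.945 with the other 3 WT FRI 1W cold libraries and of 0.883 to 0.971 (median 0.957) with the 4 *vrn1-4* FRI 1W cold libraries, taken across bins that share each library's depth. Other libraries were also far from their group. WT FRI warm replicate 2 had an r of 0.899 to 0.911 with the rest of its group. The median r of *vrn1-4* FRI 1W cold replicate 4 was 0.944 with its group and 0.965 with *vrn1-4* FRI in the warm. Results that turn on WT FRI 1W cold replicate 1 are given with and without it.

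Intron 6 held a smaller share of *FLC* fragments in *vrn1-4* FRI than in WT FRI at both temperatures. After 1W cold the share was 5.72%, 5.96%, 6.58% and 5.50% in the *vrn1-4* FRI libraries, against 7.48%, 8.20%, 7.74% and 7.47% in the WT FRI libraries. In the warm it was 5.30%, 5.72% and 5.24% in *vrn1-4* FRI, against 6.45%, 7.05% and 7.21% in WT FRI. Every *vrn1-4* FRI library was below every WT FRI library of the same temperature. With each distinct fragment counted once, this held after cold (7.98 to 8.80% against 9.20 to 9.39%). In the warm it did not, as *vrn1-4* FRI warm replicate 3 (7.904%) lay above WT FRI warm replicate 2 (7.885%). That WT FRI library listed 14166 distinct *FLC* fragments, and the WT FRI warm libraries with 27911 and 90960 had 8.37% and 9.13%. In WT FRI after cold the order was not the same, with 9.39% at 46448 fragments and 9.21% at 109647. The part of depth in counts of distinct fragments was not tested, here or below. The difference between the genotypes was -1.78 percentage points after cold (5.94 ± 0.464% in *vrn1-4* FRI against 7.72 ± 0.340% in WT FRI, SD, n = 4 each). A two-sided exact permutation test of 4 libraries against 4 cannot go below the p found here (p = 0.0286, adjusted p = 0.114 over the 20 exact tests made). In the warm the difference was -1.48 percentage points (5.42 ± 0.264% against 6.90 ± 0.398%, SD, n = 3 each), again at the smallest p possible (exact permutation test, p = 0.1, adjusted p = 0.190). No exact test of the 20 passed 0.05 after adjustment.

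Within each genotype the mean share of intron 6 was higher after cold than in the warm, by less than the genotypes differed. In WT FRI the cold and warm libraries did not overlap, and the means differed by 0.822 percentage points (exact permutation test, p = 0.0286, adjusted p = 0.114). In *vrn1-4* FRI the difference was 0.518 percentage points and the libraries overlapped (exact permutation test, p = 0.143, adjusted p = 0.204). No difference in the cold response between genotypes passed (-0.304 percentage points, genotype labels permuted within each temperature in an exact permutation test of 1400 arrangements, p = 0.766).

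Since each library sums to 1, a share says where within *FLC* fragments lie and not how many nucleosomes *FLC* holds. The window is 9.50% of the target region. Fragments were therefore less dense in intron 6 than over the locus, at 0.551 to 0.692 of an even spread in *vrn1-4* FRI libraries and 0.679 to 0.863 in WT FRI libraries. The share was also lower relative to each neighbour, a comparison added after seeing the data. The log2 ratio of the intron 6 share to that of exons 2 to 6 with their introns was -1.39 in *vrn1-4* FRI and -0.90 in WT FRI after cold. To that of exon 7, taken with the 83 bp of intron 6 left out of the window, it was -0.35 and 0.41. Against intron 1, which is also AT-rich, the genotypes differed by less, with -2.56 in *vrn1-4* FRI and -2.34 in WT FRI (difference -0.22). Each of these differences in the cold had the smallest p possible (exact permutation test, p = 0.0286, adjusted p = 0.102 over 25 added tests). In a limma fit over the 15 annotated segments of the locus the same 83 bp were counted with exon 7. The log2 difference of the intron 6 share was -0.38 after cold (adjusted p = 0.000303 from limma) and -0.35 in the warm (adjusted p = 0.00183 from limma), where 66.7% and 46.7% of all segments were called.

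**Figure D1:**
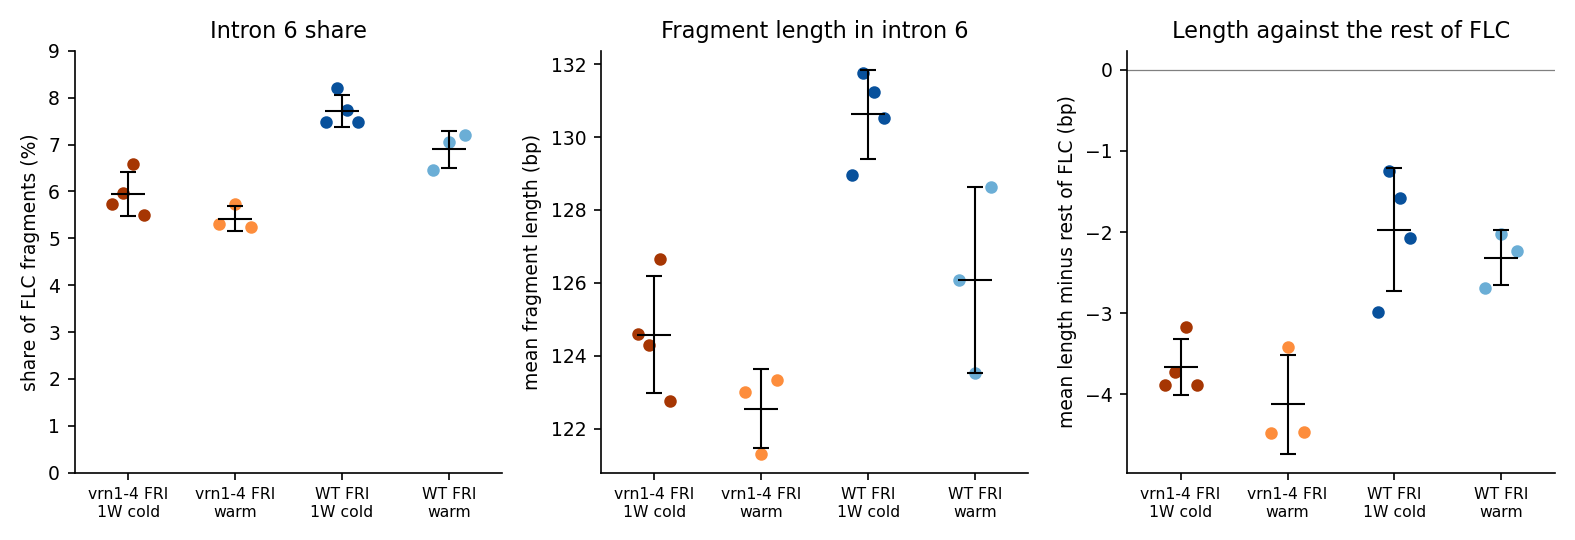
Share of *FLC* fragments in intron 6 (%), mean fragment length in intron 6 (bp, axis not from 0) and that length minus the mean over the rest of *FLC* (bp), 1 point per library, with the mean and SD of each group. The *vrn1-4* FRI libraries lie between 5.24 and 6.58% in the left plot, all below the WT FRI libraries at 6.45 to 8.20% of the same temperature, and in the right plot every library lies below 0.

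Fragments of intron 6 were shorter than those of the rest of *FLC* in all 14 libraries, and more so in *vrn1-4* FRI. The mean length in intron 6 was 124.6, 124.3, 126.6 and 122.8 bp in *vrn1-4* FRI after cold, against 129.0, 131.8, 131.2 and 130.5 bp in WT FRI after cold. Among warm-grown libraries it was 123.0, 121.3 and 123.3 bp in *vrn1-4* FRI, against 126.1, 123.5 and 128.6 bp in WT FRI. At each temperature the genotypes did not overlap. The genotypes differed by -6.05 bp after cold (exact permutation test, p = 0.0286, adjusted p = 0.114) and by -3.53 bp in the warm (exact permutation test, p = 0.1, the smallest possible). After cold, fragments were longer by 4.55 bp in WT FRI (exact permutation test, p = 0.0286, adjusted p = 0.114) and by 2.03 bp in *vrn1-4* FRI (exact permutation test, p = 0.114).

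Lengths differed between whole libraries too, in the same direction. The mean over the rest of *FLC* was 126.6 to 129.8 bp in *vrn1-4* FRI and 131.9 to 133.0 bp in WT FRI after cold. In the warm it was 124.7 to 127.8 bp and 125.5 to 130.9 bp, which overlapped. The mean over intron 6 was therefore also set against the rest of *FLC* in the same library. This gap was -3.67 ± 0.341 bp in *vrn1-4* FRI and -1.97 ± 0.755 bp in WT FRI after cold (SD, n = 4 each), a difference of -1.70 bp (exact permutation test, p = 0.0286, adjusted p = 0.114). Warm-grown seedlings gave -4.12 ± 0.609 bp in *vrn1-4* FRI and -2.32 ± 0.340 bp in WT FRI (SD, n = 3 each), a difference of -1.81 bp (exact permutation test, p = 0.1, the smallest possible). The gap did not separate cold from warm in either genotype (0.458 bp in *vrn1-4* FRI and 0.347 bp in WT FRI, exact permutation tests, p = 0.257 and p = 0.486).

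The lengths in intron 6 formed groups, which are not set here against the rest of *FLC*. The most frequent length was 145 bp in each of the 4 *vrn1-4* FRI 1W cold and the 4 WT FRI 1W cold libraries, close to the DNA wrapped by a whole nucleosome, and 104 or 105 bp in the *vrn1-4* FRI warm libraries. In the WT FRI warm libraries it was 103 to 145 bp. Fragments of 140 to 150 bp made up 21.2 to 30.2% of intron 6 fragments in *vrn1-4* FRI after cold, against 37.2 to 43.2% in WT FRI after cold. The same class made up 17.8 to 22.8% in *vrn1-4* FRI in the warm, against 21.2 to 34.7% in WT FRI in the warm. Fragments under 120 bp made up 40.7 ± 3.79% in *vrn1-4* FRI after cold, against 27.0 ± 3.17% in WT FRI after cold (SD, n = 4 each). Lengths outside 100 to 150 bp were not analysed here, so fragments past either limit count in none of these values.

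The lower share of intron 6 in *vrn1-4* FRI was present in both length classes when each was scaled to its own total. Of *FLC* fragments of 140 to 150 bp, intron 6 held 4.50 ± 0.539% in *vrn1-4* FRI and 6.71 ± 0.504% in WT FRI after cold, and of those under 120 bp it held 7.39 ± 0.498% and 8.78 ± 0.301% (SD, n = 4 each; exact permutation tests added after seeing the data, p = 0.0286 each, adjusted p = 0.102 over 25 tests).

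**Figure D2:**
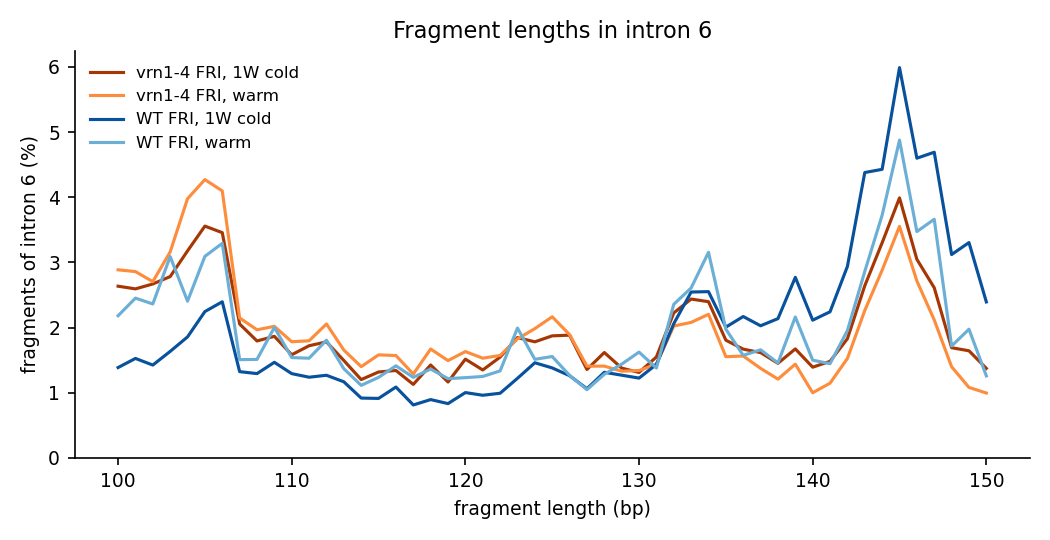
Percentage of intron 6 fragments (y axis) at each length from 100 to 150 bp (x axis), as the mean over the libraries of each group. WT FRI after 1W cold has the highest line at 145 bp (5.99%) and the lowest around 105 bp, and *vrn1-4* FRI in the warm is the only group whose highest point lies at 105 bp (4.27%).

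To find where in intron 6 the genotypes differed, the share of each of 96 bins of *FLC* was tested by limma on log2(share + 0.0001), with Benjamini-Hochberg adjustment over all bins. Of the 10 bins that overlap intron 6, 7 fell in *vrn1-4* FRI relative to WT FRI after cold and 0 rose, against 30.2% of all bins lower, 12.5% higher and 42.7% called in either direction. In the warm 6 of 10 fell and 0 rose, against 28.1% of all bins lower, 8.33% higher and 36.5% called in either direction. Groups that did not overlap were counted too. After cold 6 bins of intron 6 were lower in every *vrn1-4* FRI library (21.9% of all bins) and 0 higher (10.4% of all bins), and in the warm 7 were lower (35.4% of all bins) and 1 higher (14.6% of all bins). The median log2 difference of the 10 bins was -0.33 after cold and -0.42 in the warm, and that of all 96 bins was -0.10 and -0.16. Both counts turned on weighting fragments by frequency, and the part of depth in this was not tested. With each distinct fragment counted once, 2 of 10 bins passed after cold (those at 4867 and 5367 bp) and 0 in the warm. The count of 0 that rose turned on WT FRI 1W cold replicate 1. Without it, 7 of 10 bins fell and 1 rose after cold, against 30.2% of all bins lower and 17.7% higher, and 7 fell and 1 rose in the warm, against 30.2% lower and 13.5% higher.

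Largest after cold was the difference of the bin from 4967 to 5066 bp. This bin held 0.456%, 0.508%, 0.587% and 0.281% of *FLC* fragments in *vrn1-4* FRI after cold, against 0.787%, 1.08%, 0.914% and 0.868% in WT FRI after cold. The groups did not overlap, and the log2 difference was -1.02 (adjusted p = 0.00223 from limma, standard error 0.195). In the warm the bin held 0.298%, 0.421% and 0.430% in *vrn1-4* FRI, against 0.702%, 0.604% and 0.766% in WT FRI, a log2 difference of -0.85 (adjusted p = 0.0131 from limma, standard error 0.226). The call in the warm was lost without WT FRI warm replicate 3 (adjusted p = 0.0605 from limma) and without *vrn1-4* FRI warm replicate 1 (adjusted p = 0.0639 from limma). Both calls were lost with each distinct fragment counted once, where the differences were -0.38 and -0.18 (adjusted p = 0.168 and 0.645 from limma).

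A difference of similar size was found at 5367 to 5466 bp, a bin that holds the *COOLAIR* end and part of the alternative exon. It held 0.512%, 0.594%, 0.644% and 0.418% in *vrn1-4* FRI after cold, against 0.759%, 1.12%, 1.10% and 1.05% in WT FRI after cold, where the lowest value is replicate 1. Warm-grown libraries held 0.359%, 0.522% and 0.432% in *vrn1-4* FRI, against 0.844%, 0.744% and 0.869% in WT FRI. Neither pair of groups overlapped. The log2 difference was -0.89 after cold (adjusted p = 0.00184 from limma) and -0.90 in the warm (adjusted p = 0.00248 from limma). Counting each distinct fragment once gave -0.37 after cold (adjusted p = 0.0375 from limma) and -0.30 in the warm, where the call was lost (adjusted p = 0.121 from limma).

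One bin of intron 6 rose with cold in WT FRI, that at 4867 to 4966 bp. In WT FRI after cold its mean share was the highest of the 10 (1.55%), whereas the highest mean in WT FRI in the warm was that of the bin from 5067 bp (1.24%), and in *vrn1-4* FRI that of the bin from 4767 bp (1.19% after cold and 1.27% in the warm). It held 1.37%, 1.69%, 1.62% and 1.53% in WT FRI after cold, against 1.05%, 1.17% and 1.21% in WT FRI in the warm. The groups did not overlap, with a log2 difference of 0.44 (adjusted p = 0.0184 from limma, standard error 0.0944), and 2.08% of all bins were called in this comparison. The call was lost without WT FRI 1W cold replicate 2, WT FRI 1W cold replicate 3, WT FRI warm replicate 1 or WT FRI warm replicate 2 (adjusted p = 0.0533 to 0.146 from limma), and no bin of intron 6 passed with bins shifted by 50 bp or with each distinct fragment counted once. In WT FRI 2 bins of intron 6 were higher in every cold library (14.6% of all bins) and 1 was lower (7.29% of all bins).

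The same bin held 1.01%, 1.09%, 1.10% and 0.991% in *vrn1-4* FRI after cold, against 0.844%, 0.903% and 0.885% in *vrn1-4* FRI in the warm. These groups did not overlap either, but the log2 difference of 0.25 did not pass (adjusted p = 0.265 from limma). Between the genotypes the bin fell in *vrn1-4* FRI by 0.56 on the log2 scale after cold (adjusted p = 0.000568 from limma) and by 0.37 in the warm (adjusted p = 0.0137 from limma), where the call was lost without WT FRI warm replicate 3 or *vrn1-4* FRI warm replicate 1 (adjusted p = 0.0632 and 0.0580 from limma). That call in the warm was also lost with AT percentage regressed out (-0.13, adjusted p = 0.285 from limma) and with each distinct fragment counted once (-0.14, adjusted p = 0.216 from limma), while counting distinct fragments once gave -0.26 after cold (adjusted p = 0.0209 from limma).

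The bins between these also fell in *vrn1-4* FRI, by less. The log2 difference was -0.34 after cold and -0.48 in the warm at 5067 to 5166 bp, -0.31 and -0.32 at 5167 to 5266 bp, and -0.28 and -0.56 at 5267 to 5366 bp (adjusted p = 0.00163 to 0.0372 from limma). At 5167 to 5266 bp the call in the warm was lost without any one of 5 libraries (WT FRI warm replicates 2 and 3, *vrn1-4* FRI warm replicates 1 and 3 and *vrn1-4* FRI 1W cold replicate 2, adjusted p = 0.0510 to 0.156 from limma). All 6 of these calls were lost with each distinct fragment counted once, where the differences were -0.18 to -0.09 after cold and -0.23 to -0.01 in the warm (adjusted p = 0.115 to 0.901 from limma). With AT percentage regressed out 4 of the 6 were lost.

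Lowest in share of all 10 was the bin from 4667 to 4766 bp, with 0.0315 ± 0.00937% in *vrn1-4* FRI after cold, against 0.0493 ± 0.0105% in WT FRI after cold (SD, n = 4 each). Its log2 difference was -0.53 after cold (adjusted p = 0.0178 from limma) and -0.46 in the warm (adjusted p = 0.0766 from limma). Without WT FRI 1W cold replicate 1 the difference in the warm also passed (adjusted p = 0.0379 from limma). The call after cold was lost with a pseudocount of 0.001, with each distinct fragment counted once (-0.14, adjusted p = 0.585 from limma), and without WT FRI 1W cold replicate 3 or 4 (adjusted p = 0.0625 and 0.0559 from limma).

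The first and last bins extend beyond the window, into exon 6 and into the rest of the intron. The log2 differences between genotypes were -0.09 after cold and 0.07 in the warm at 4567 to 4666 bp, and -0.11 and -0.19 at 5467 to 5566 bp, none past the test. One bin ran the other way. At 4767 to 4866 bp the share was 1.19 ± 0.0856% in *vrn1-4* FRI and 0.991 ± 0.249% in WT FRI after cold (SD, n = 4 each), and 1.27 ± 0.0684% and 1.03 ± 0.123% in the warm (SD, n = 3 each). Its log2 differences of 0.29 and 0.31 did not pass (adjusted p = 0.125 and 0.155 from limma). The *vrn1-4* FRI warm libraries were all above the WT FRI warm libraries there. After cold the bin held 1.18%, 1.09%, 1.30% and 1.18% in *vrn1-4* FRI, against 1.35%, 0.968%, 0.844% and 0.803% in WT FRI, so that the groups overlapped through WT FRI 1W cold replicate 1 alone. Without that library the bin rose in *vrn1-4* FRI, by 0.44 on the log2 scale after cold (adjusted p = 0.00407 from limma) and by 0.31 in the warm (adjusted p = 0.0379 from limma), where leaving it out changes only the spread that the fit shares. Leaving out any other single library gave no call at this bin.

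In *vrn1-4* FRI, limma called 0 of 10 bins of intron 6 between cold and warm (0% of all bins), with 1 of 10 at an unadjusted p under 0.05 and 2 of 10 by an exact permutation test per bin, which gives unadjusted p-values. There 2 bins were higher in every cold library (9.38% of all bins) and 0 lower (5.21% of all bins). The interaction of genotype and temperature was called in 0 of 10 bins by limma, with 1 of 10 at an unadjusted p under 0.05 (1.04% of all bins were called).

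**Figure D3:**
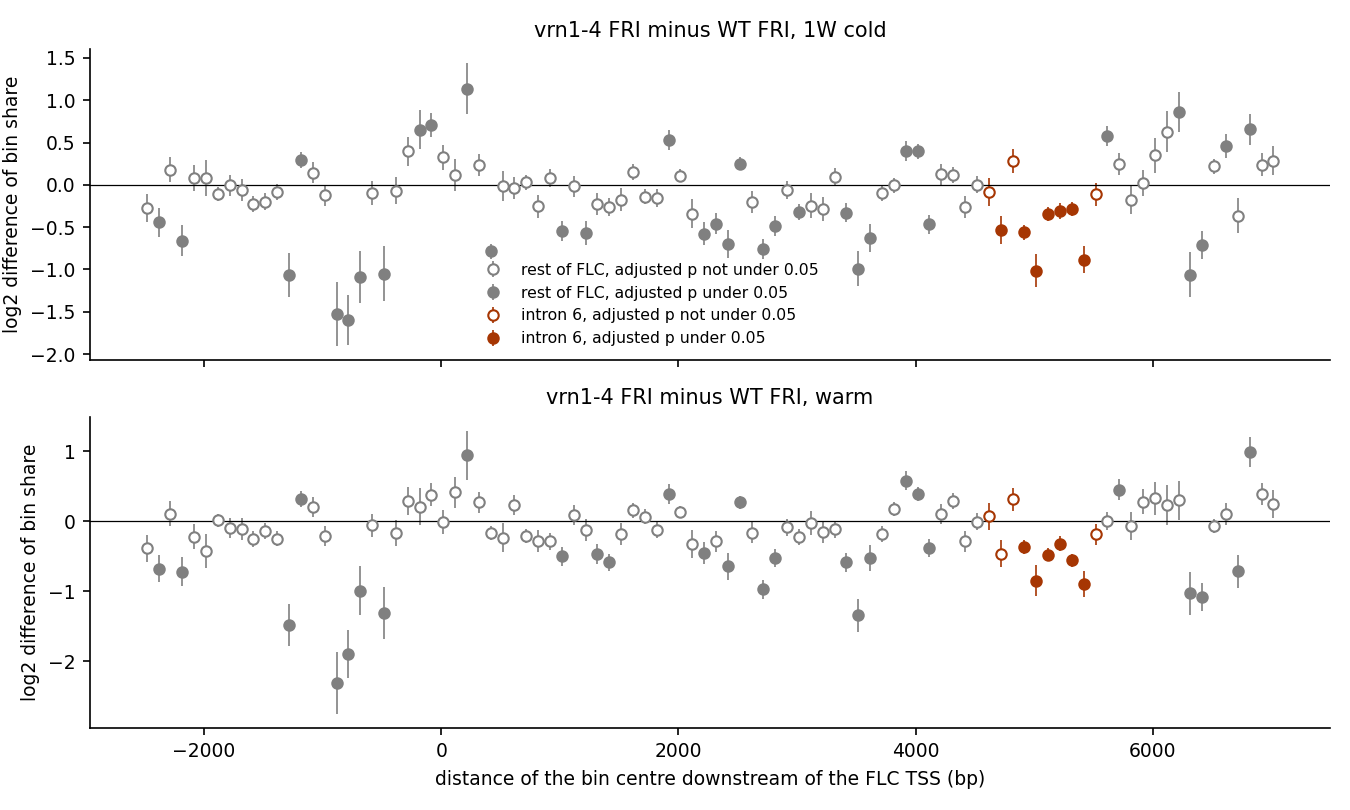
log2 difference of the bin share between *vrn1-4* FRI and WT FRI (y axis, with the standard error from limma) against the distance of the bin centre from the TSS (bp, x axis) for 96 bins, after 1W cold (upper) and in the warm (lower). Filled points have an adjusted p under 0.05. The called bins of intron 6 (7 in the upper plot and 6 in the lower) all lie below 0, among called bins of both signs in the rest of *FLC*.

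Base composition moved with these differences along the whole locus. Over the 96 bins, the AT percentage and the log2 difference of *vrn1-4* FRI against WT FRI had a Pearson's r of -0.78 after cold and -0.81 in the warm, and cold against warm had an r of 0.77 in *vrn1-4* FRI and 0.51 in WT FRI. The points share the same 14 libraries and neighbouring DNA, so these are descriptions. The bins of intron 6 were 65 to 72% AT (median 70%), against a median of 68% over all bins. The bin that ran the other way was the one of 65%, and the bin with the largest difference after cold the one of 72%. Other bins did not keep this order, since the bin from 5467 bp, of 71%, had differences of -0.11 and -0.19 and was not called, while that from 4667 bp, of 67%, had -0.53 after cold and was called. With AT percentage regressed out of the log2 shares in each library, a step added after seeing the data, 5 of 10 bins fell in *vrn1-4* FRI after cold and 3 of 10 in the warm. Over the locus 25 and 17 of 96 bins then fell, and 30 and 18 were called in either direction. The differences were -0.75 after cold and -0.55 in the warm at 4967 to 5066 bp (adjusted p = 0.00169 and 0.0324 from limma), and -0.67 and -0.66 at 5367 to 5466 bp (adjusted p = 0.00169 and 0.00401 from limma). At 4867 to 4966 bp after cold the difference was -0.35 instead of -0.56 (adjusted p = 0.00608 from limma). Calls were lost in the warm at the same bin, where -0.37 became -0.13 (adjusted p = 0.285 from limma), and at 5067 to 5166 bp, where -0.34 after cold became -0.13 and -0.48 in the warm became -0.24 (adjusted p = 0.277 and 0.123 from limma). They were also lost at 5167 to 5266 bp in the warm, which stayed at -0.32 (adjusted p = 0.0522 from limma), and at 5267 to 5366 bp after cold, where -0.28 became -0.18 (adjusted p = 0.121 from limma). The rise with cold in WT FRI at 4867 to 4966 bp was then 0.35 (adjusted p = 0.0445 from limma). What part base composition has in these differences was not tested.

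The stretch without a bait lies across the border of the bins at 4867 and 4967 bp. Its mean coverage, the percentage of *FLC* fragments that cover a base, was 0.542 ± 0.122% in *vrn1-4* FRI and 1.15 ± 0.174% in WT FRI after cold (SD, n = 4 each), and 0.431 ± 0.0618% and 0.803 ± 0.0982% in the warm (SD, n = 3 each). Fragments there can be captured only through the bases next to it. Its part in the result was not tested.

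Midpoints gathered in 4 peaks of the mean profile within the window, of 39 over *FLC*. Their centres lay 4883, 5065, 5190 and 5410 bp from the TSS, at 3174565, 3174383, 3174258 and 3174038, with 182, 125 and 220 bp between neighbours. The spacing of 125 bp is shorter than the 147 bp of DNA on one nucleosome. The peak at 4883 bp was the tallest, at 3.08 times the mean height of the locus (rank 17 of 39), and the peak at 5065 bp was the lowest of all 39, at 1.02 times.

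**Figure D4:**
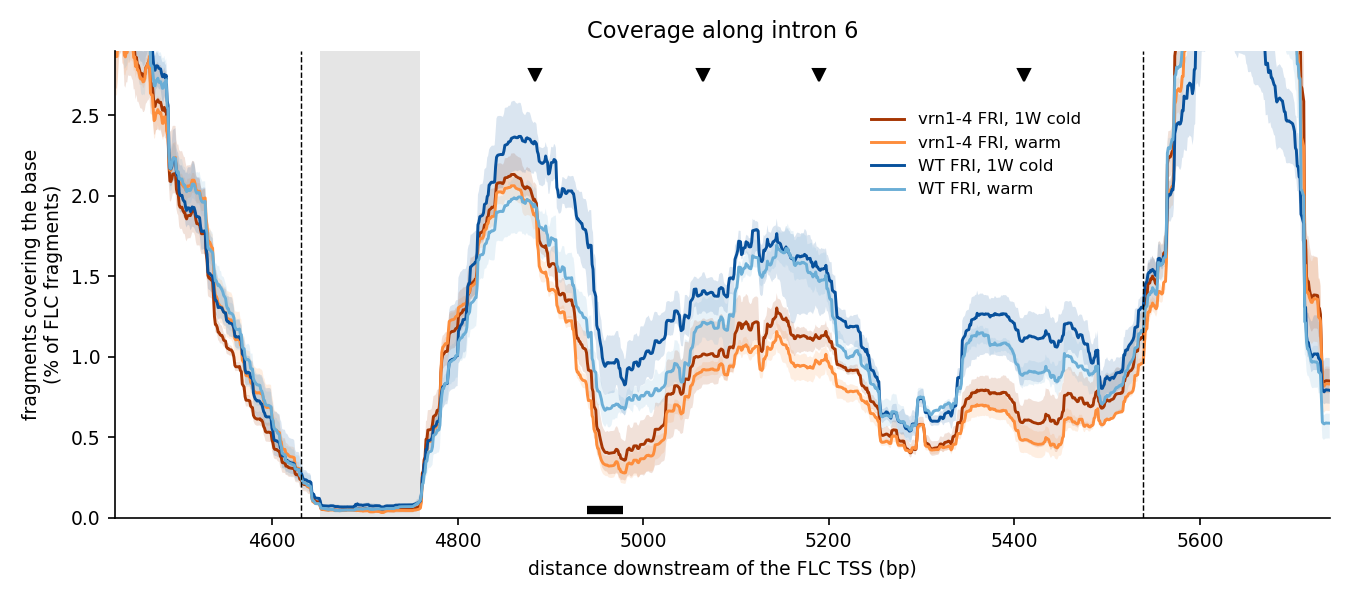
Percentage of *FLC* fragments covering each base (y axis) against distance from the TSS (bp, x axis), as group means with bands from the lowest to the highest library. Triangles mark the 4 peaks, dashed lines the window, the grey band the depleted stretch and the black bar the stretch without a bait. Both *vrn1-4* FRI lines lie below both WT FRI lines from 4886 to 5539 bp, and all 4 lines are near 0 in the grey band (curves outside the window are cut at the top).

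After cold, 3 of the 4 peaks fell in *vrn1-4* FRI relative to WT FRI, and 0 rose, against 28.2% of all peaks lower, 17.9% higher and 46.2% called in either direction. In the warm 2 of 4 fell and 0 rose, against 17.9% of all peaks lower, 10.3% higher and 28.2% called in either direction. At each temperature 2 peaks were lower in every *vrn1-4* FRI library (23.1% of all peaks after cold and 23.1% in the warm) and 0 higher (12.8% and 17.9% of all peaks). Counting each distinct fragment once left 1 peak after cold and 0 in the warm.

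The peak at 5410 bp, centred on the edge of the alternative exon, changed most. It held 0.487%, 0.560%, 0.589% and 0.389% of *FLC* fragments within 40 bp in *vrn1-4* FRI after cold, against 0.689%, 1.03%, 1.02% and 0.981% in WT FRI after cold. In the warm it held 0.337%, 0.495% and 0.406% in *vrn1-4* FRI, against 0.773%, 0.708% and 0.792% in WT FRI. Neither pair of groups overlapped, and the lowest WT FRI 1W cold value was that of replicate 1. The log2 difference was -0.86 after cold (adjusted p = 0.000793 from limma) and -0.88 in the warm (adjusted p = 0.00272 from limma). Without that replicate the difference after cold also passed (adjusted p = 0.000134 from limma).

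The peak at 5190 bp fell in *vrn1-4* FRI by 0.39 on the log2 scale after cold (adjusted p = 0.0269 from limma) and by 0.62 in the warm (adjusted p = 0.00596 from limma). After cold it held 0.750%, 0.819%, 0.788% and 0.855% in *vrn1-4* FRI, against 0.780%, 1.16%, 1.19% and 1.14% in WT FRI. Replicate 1 of WT FRI lay among the mutant libraries, and without it the difference was -0.53. The call after cold was lost without WT FRI 1W cold replicate 2, 3 or 4 or without *vrn1-4* FRI 1W cold replicate 1 (adjusted p = 0.0680 to 0.0821 from limma), and with AT percentage regressed out (adjusted p = 0.0503 from limma).

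The peak at 5065 bp did not pass in any comparison with all libraries in the fit. Leaving out 1 library in turn gave up to 4 called peaks between genotypes after cold, so it passed there at least once. The peak held 0.730 ± 0.147% in *vrn1-4* FRI and 0.892 ± 0.137% in WT FRI after cold (SD, n = 4 each), and 0.664 ± 0.0303% and 0.670 ± 0.112% in the warm (SD, n = 3 each). It had the shortest fragments of the 4 peaks in all 4 groups, with a mean of 120.4 bp in *vrn1-4* FRI and 128.0 bp in WT FRI after cold, against 130.6 and 135.6 bp at the peak of 5410 bp.

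The tallest peak, at 4883 bp, held 1.33%, 1.36%, 1.36% and 1.31% in *vrn1-4* FRI after cold, against 1.89%, 1.77%, 1.69% and 1.63% in WT FRI after cold. The groups did not overlap, and the log2 difference was -0.38 (adjusted p = 0.00130 from limma). In the warm the values were 1.26%, 1.34% and 1.23% in *vrn1-4* FRI, against 1.27%, 1.37% and 1.45% in WT FRI. These overlapped, with a log2 difference of -0.10 (adjusted p = 0.40 from limma). It was also the peak of intron 6 that rose with cold in WT FRI, by 0.36 on the log2 scale (adjusted p = 0.0129 from limma, against 15.4% of all peaks higher, 5.13% lower and 20.5% called in either direction), and this was lost without WT FRI warm replicate 1 (adjusted p = 0.0639 from limma). In *vrn1-4* FRI the difference with cold was 0.08 (adjusted p = 0.602 from limma), and 0 of 4 peaks were called there (0% of all peaks, and 0 of 4 at an unadjusted p under 0.05 by limma, 1 of 4 by exact permutation). The interaction of genotype and temperature at this peak was -0.28 (adjusted p = 0.176 from limma). In WT FRI 1 peak was higher in every cold library (20.5% of all peaks) and 0 lower (12.8%), and in *vrn1-4* FRI 1 was higher (10.3%) and 0 lower (7.69%).

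Around this peak midpoints gathered at 2 places 48 bp apart, 4830 and 4878 bp from the TSS. The place at 4830 bp lies more than 40 bp from the peak centre at 4883 bp. The shares and differences given above for the peak therefore leave that place out. In all 4 WT FRI 1W cold libraries the most frequent midpoint lay at 4878 bp, and in the 3 *vrn1-4* FRI warm libraries at 4830 or 4831 bp. It lay at 4831 to 4883 bp in *vrn1-4* FRI after cold and at 4876 to 4883 bp in WT FRI in the warm. Both places were chosen from these profiles, so the following ratios are a description. The share within 20 bp of 4878 bp over that within 20 bp of 4830 bp was 1.00, 1.12, 0.886 and 0.962 in *vrn1-4* FRI after cold, against 1.47, 1.65, 1.80 and 2.03 in WT FRI after cold. In the warm it was 0.807, 0.817 and 0.888 in *vrn1-4* FRI, against 1.37, 1.01 and 1.28 in WT FRI. At each temperature all mutant libraries lay below all WT FRI libraries, and within each genotype the cold mean lay above the warm mean. WT FRI warm replicate 2, the one with the fewest fragments, lay nearest to the mutant.

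The shares at the 2 places differed in opposite directions between genotypes. At 4878 bp the share was 0.895 ± 0.0211% in *vrn1-4* FRI and 1.18 ± 0.0157% in WT FRI after cold, and at 4830 bp it was 0.906 ± 0.0705% and 0.686 ± 0.0952% (SD, n = 4 each). Fragments centred at 4830 bp were the shorter ones in all 4 groups, at 119.2 to 121.5 bp against 121.5 to 127.1 bp at 4878 bp in *vrn1-4* FRI after cold, and 121.7 to 126.9 bp against 129.3 to 131.9 bp in WT FRI after cold.

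**Figure D5:**
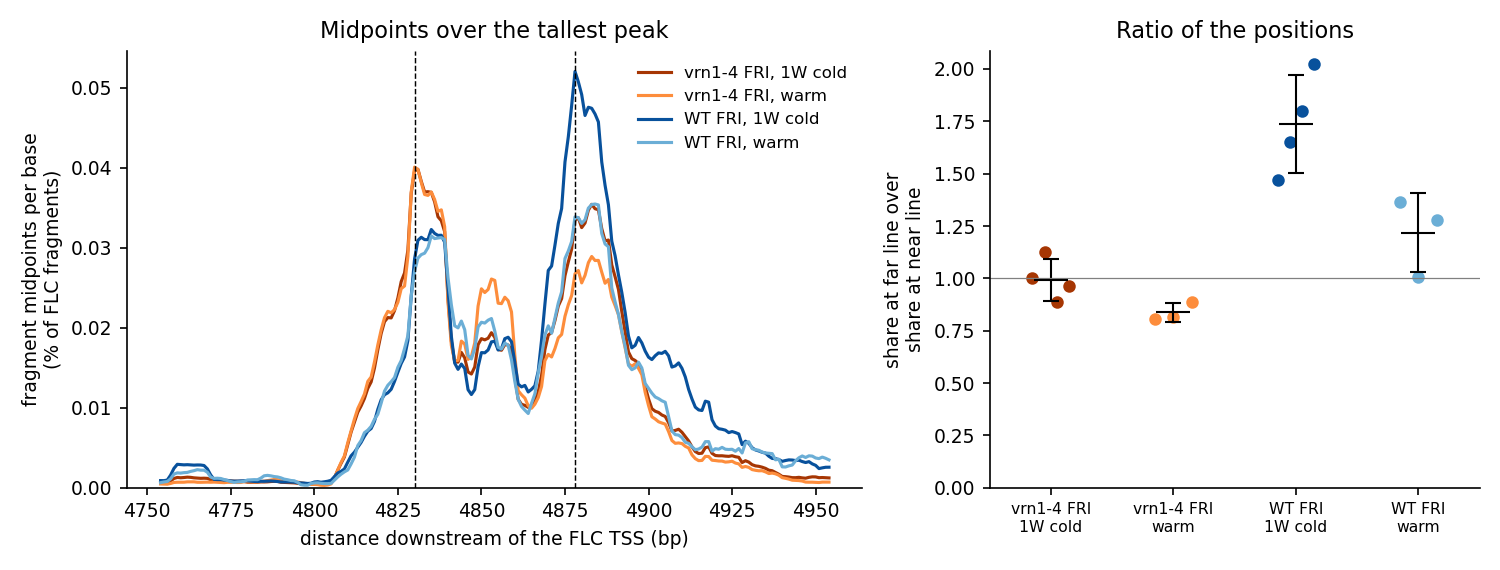
Left, midpoints per base (% of *FLC* fragments, smoothed over 11 bp, y axis) against distance from the TSS (bp, x axis), as group means, with dashed lines at 4830 and 4878 bp. Right, the share within 20 bp of the far line over that of the near line, 1 point per library with mean and SD. The ratio is 1.47 to 2.03 in WT FRI after 1W cold and 0.807 to 0.888 in *vrn1-4* FRI in the warm.

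How tightly midpoints gathered was measured as the percentage of intron 6 fragments within 10 bp of one of the 4 peak centres. It was 23.9 ± 1.57% in *vrn1-4* FRI and 26.6 ± 2.44% in WT FRI after cold (SD, n = 4 each), and 22.0 ± 0.252% and 21.7 ± 0.447% in the warm (SD, n = 3 each). The difference with cold was 4.91 percentage points in WT FRI (exact permutation test, p = 0.0571, adjusted p = 0.190) and 1.89 in *vrn1-4* FRI (exact permutation test, p = 0.143, adjusted p = 0.204). The interaction of genotype and temperature was -3.02 percentage points (exact permutation test, p = 0.0757), and -4.20 without WT FRI 1W cold replicate 1 (exact permutation test, p = 0.0114, not adjusted). Neither difference with cold held when each distinct fragment was counted once, which turned both differences to below 0.

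The 5 most frequent fragments together made up 1.57 to 3.40% of the intron 6 fragments of a library. The first of them, of 147 bp at 5344 to 5490 bp from the TSS, is the one printed above that holds the *COOLAIR* end. Its frequency was 0.0234%, 0.0272%, 0.0225% and 0.0220% in *vrn1-4* FRI after cold, against 0.0247%, 0.0786%, 0.115% and 0.109% in WT FRI after cold. In the warm it was 0.0149%, 0.0153% and 0.0171% in *vrn1-4* FRI, against 0.0924%, 0.0773% and 0.0630% in WT FRI. It was low in all 7 mutant libraries and in WT FRI 1W cold replicate 1. Because of that replicate the genotypes overlapped after cold, while in the warm they did not.

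Other fragments ran the other way. A fragment of 104 bp at 4782 to 4885 bp, centred near the 4830-bp place, had a frequency of 0.0299%, 0.0339%, 0.0231% and 0.0345% in *vrn1-4* FRI after cold, against 0.0185%, 0.00441%, 0.00844% and 0.0140% in WT FRI after cold. A fragment of 100 bp at 5025 to 5124 bp had 0.0535%, 0.0363%, 0.0481% and 0.0238% in *vrn1-4* FRI after cold, against 0.0497%, 0.0107%, 0.00844% and 0.0144% in WT FRI after cold, where replicate 1 again lay with the mutant. In the warm the 100-bp fragment had 0.0375%, 0.0358% and 0.0382% in *vrn1-4* FRI, against 0.0123%, 0.0376% and 0.0151% in WT FRI, where replicate 2 lay with the mutant. The fragment of 104 bp did not overlap between the genotypes in the warm. The remaining fragments, of 123 bp at 4822 to 4944 bp and 145 bp at 4762 to 4906 bp, overlapped between the genotypes after cold. These fragments were chosen for their frequency and were not tested one by one.

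A stretch of 109 bp, 4652 to 4760 bp from the TSS, was almost free of fragments. Its mean coverage was 0.0536 ± 0.0125% in *vrn1-4* FRI and 0.0763 ± 0.0100% in WT FRI after cold (SD, n = 4 each), and 0.0453 ± 0.00200% and 0.0587 ± 0.00318% in the warm (SD, n = 3 each). Over the whole window the mean coverage was 0.815% in *vrn1-4* FRI and 1.12% in WT FRI after cold, and 0.729% and 0.961% in the warm. The stretch was low in all 14 libraries, and fragments that spanned it whole made up at most 0.000654% of *FLC* fragments in a library. It is covered by baits. It begins near exon 6, and the repeat of 10 TA units at its end towards exon 7, from 3174686 to 3174706, is 1 of 3 repeats of at least 5 TA units in the target region. The palindrome printed in capitals, from 3174731 to 3174750, is the one of the 7 palindromes of at least 20 bp in the target region that has G or C. MNase prefers cuts at A and T, and an absence of fragments of 100 to 150 bp shows unprotected DNA, DNA protected over another length or DNA lost in cutting alike, which cannot be told apart here.

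Fragment ends in intron 6 lay between 2 A or T bases for 67.8 ± 2.34% of ends in *vrn1-4* FRI and 69.2 ± 0.979% in WT FRI after cold (SD, n = 4 each), and for 67.1 ± 2.10% and 64.4 ± 1.71% in the warm (SD, n = 3 each). Such steps make up 47.7% of the window. The genotypes' ranges overlapped after cold and in the warm. In WT FRI the cold libraries, at 68.4 to 70.4%, lay wholly above the warm ones, at 62.8 to 66.2%, while in *vrn1-4* FRI the cold libraries (65.1 to 69.9%) and the warm ones (64.8 to 68.8%) overlapped. The part of this shift in the differences between cold and warm in WT FRI was not tested.

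Coverage on both sides of the *COOLAIR* end at 3173997 was compared as a description. In the 100 bp past it, which hold most of the alternative exon, coverage was 0.689 ± 0.107% in *vrn1-4* FRI and 1.18 ± 0.173% in WT FRI after cold (SD, n = 4 each). In the 100 bp before it, towards exon 7, coverage was 0.863 ± 0.132% and 1.10 ± 0.0674%. Over the alternative exon itself it was 0.733 ± 0.0886% in *vrn1-4* FRI, from 0.634 to 0.830%, and 1.20 ± 0.168% in WT FRI, from 0.954 to 1.31%, so that the groups did not overlap. In the warm it was 0.633 ± 0.0838% in *vrn1-4* FRI and 1.05 ± 0.0495% in WT FRI (SD, n = 3 each).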

How the data were processed

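Targeted MNase-seq libraries were pooled and captured in one reaction, per the labels. The authors removed adaptors with fastp, aligned to TAIR10 with Bowtie2, sorted and separated the loci with SAMtools 1.5, and rebuilt fragments of 100 to 150 bp from the pairs. They deposited a fraction per distinct fragment and library, scaled to all *FLC* fragments, without counts. Libraries were not weighted by depth, so precision rests on the spread between libraries. Columns of library values that were not used numbered 0. Replicates were biological and were not pooled, and groups came from the sample titles.

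Shares of 96 bins and of 39 peaks (local maxima of the mean profile smoothed over 21 bp, at least 120 bp apart, within 40 bp) were log2-transformed after adding 0.0001 and fitted with limma 3.58.1 (R 4.3.3), all 14 libraries entering as 4 groups, with two-sided tests called at a Benjamini-Hochberg adjusted p under 0.05. A log2 difference on this scale understates that of low bins. Single values were tested by two-sided exact permutation of library labels, with 35, 70, 20 or 1400 arrangements. Scripts were tested on simulated data (Python 3.11.15, numpy 2.4.6, pandas 2.3.3, scipy 1.17.1).

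All bins that overlap intron 6, all its peaks and its 5 most frequent fragments were described. Of the 7 called bins the sequences of 2 are printed. Window, lists and tests were chosen with earlier results of these data known. Alternatives were other pseudocounts, no filter on low shares (0.0001), each distinct fragment counted once, lengths, bin grids, peak widths, leaving out each library, a replicate block and, added after seeing the data, fragments of 140 to 150 bp, ratios to neighbours and regression on AT percentage.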

Additional observations from a re-analysis of the deposited data

Results flagged for a closer look

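In 48 sets of 4 libraries, values far from the rest of their group were looked for with Dixon's criterion, which chance meets in about 1 of 20 sets. It was met 3 times, each time by WT FRI 1W cold replicate 1. This count is close to the chance rate, and bins and peaks share DNA, so the sets are not independent. The share at the peak 5190 bp from the TSS was 0.780% in this library and 1.14 to 1.19% in the other 3. The share at the peak at 5410 bp was 0.689%, against 0.981 to 1.03% in the other 3. The frequency of the 100-bp fragment that starts 5025 bp from the TSS was 0.0497%, against 0.00844 to 0.0144% in the other 3. Each of these values lay within or next to the range of the *vrn1-4* FRI 1W cold libraries. Without this library, 7 bins of intron 6 fell and 1 rose in *vrn1-4* FRI after cold (limma, adjusted p under 0.05), against 7 and 0 with it. The bin that rose, from 4767 to 4866 bp, had a log2 difference of 0.44 without the library and 0.29 with it (adjusted p = 0.00407 and 0.125 from limma).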

How the results depend on the processing

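Of the 20 calls of single bins and peaks, 17 were lost when each distinct fragment was counted once, 6 with AT percentage regressed out, 1 with a pseudocount of 0.001, 1 with fragments of 140 to 150 bp and none with the smaller pseudocount or without the filter on low shares, and no call changed direction. Counting distinct fragments once gave 0 bins for cold in WT FRI, 2 and 0 bins between genotypes after cold and in the warm, and 0, 1 and 0 peaks. It also turned the difference in concentration to -0.0317 percentage points (cold in WT FRI), -0.284 (cold in *vrn1-4* FRI) and -0.490 (genotypes in the warm). The last was -1.96 with fragments of 120 to 150 bp and -0.313 within 20 bp of the peaks. With fragments of 120 to 150 bp the length gap differed by -0.0876 bp with cold in WT FRI and by -0.0664 bp in *vrn1-4* FRI. The causes were not tested. AT regression left 3 bins between genotypes in the warm. Bins shifted by 50 bp gave 0 bins for cold in WT FRI. The exact test per bin, at an unadjusted p under 0.05, called 2 bins and 1 peak for cold in *vrn1-4* FRI, and 0 bins and 0 peaks between genotypes in the warm, where 3 against 3 cannot go below 0.1. Peaks called for cold in WT FRI numbered 2 with fragments of 120 to 150 bp or a half-width of 25 bp. Over annotated segments, limma gave log2 differences of the intron 6 share of -0.38 after cold and -0.35 in the warm (adjusted p = 0.000303 and 0.00183), where 66.7% and 46.7% of the 15 segments were called.

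Same-numbered libraries did not deviate together over the 96 bins in every comparison. Their correlations were -0.05 to 0.04 for cold in WT FRI and -0.60 to 0.08 between genotypes in the warm. For cold in *vrn1-4* FRI they were -0.23 to 0.61 (2 of 3 over 0.1), and between genotypes after cold 0.02 to 0.40 (3 of 4 over 0.1). Libraries of different number had -0.86 to 0.80 and -0.61 to 0.71 there. With these mixed values the numbers were not taken to pair the libraries. With a replicate block, 2 peaks instead of 1 were called for cold in WT FRI and no call of a single bin or peak was lost.

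Leaving out 1 library in turn gave 0 to 1 bins for cold in WT FRI, 0 to 1 for cold in *vrn1-4* FRI (1 without *vrn1-4* FRI 1W cold replicate 4), 6 to 8 between genotypes after cold and 3 to 8 in the warm (8 without WT FRI 1W cold replicate 1, of which 7 fell and 1 rose in each, and 3 in the warm without WT FRI warm replicate 3 or *vrn1-4* FRI warm replicate 1), and 0 to 2 peaks for cold in WT FRI (0 without WT FRI warm replicate 1, 2 without WT FRI warm replicate 3 or *vrn1-4* FRI 1W cold replicate 4). Between genotypes it gave 2 to 4 peaks after cold and 2 in the warm. The interaction of genotype and temperature in the length gap lay between -0.23 and 0.46 bp and had no stable direction.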
